A study of Mus musculus with 22 samples.

Results

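Thy1, Pdpn, Pdgfra and Pdgfrb encode surface proteins by which synovial fibroblasts, the connective tissue cells of the joint lining, are recognised and sorted. Every region that the deposited annotation assigned to one of these 4 gene names was taken, whatever its position class, from 4 tables of regions with a difference in the histone mark H3K4me3. This gave 14 regions of 26201, and 4 gene names of 7858. Pdgfrb had 8 of the regions, Pdpn had 3, Pdgfra had 2 and Thy1 had 1.

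The study profiled H3K4me3 by ChIP-seq in cultured mouse synovial fibroblasts. It compared cells of Tg197 mice, an arthritis model made with a transgene for human TNF, with wild-type (WT) cells at 3 ages, and TNF-treated with untreated WT cells at 1 age. There were 21 libraries in 7 groups of 3, and 1 input library of mixed genotype. The groups were Tg197 cells at 3, 8 and 11 weeks, WT cells of 8 weeks plus TNF, and WT cells at 3, 8 and 11 weeks. All groups had the strain background CBA x C57BL/6J and were used at passages 4 to 5, so the values describe cells grown outside the joint. The sources used here do not give the transgene construct, the TNF dose or the length of the TNF treatment. They do not say if replicate libraries were separate animals or cultures either, so each p-value measures only the spread between these libraries.

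H3K4me3 is laid down around the start sites of genes that are being transcribed, usually as a peak on the first nucleosomes downstream of the start site. Thy1, also called CD90, is a glycoprotein anchored in the membrane by a lipid, and in the synovium it marks fibroblasts of the sublining and around vessels. Pdpn encodes podoplanin, a mucin-like membrane protein that binds the platelet receptor Clec1b and links to the actin cytoskeleton through ezrin and moesin, and it is abundant on fibroblasts of inflamed synovium. Pdgfra and Pdgfrb encode the receptor tyrosine kinases for platelet-derived growth factors, which drive growth and migration of mesenchymal cells, and Pdgfrb is also carried by pericytes.

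Regions were listed only when their best window reached a deposited p of 0.0001 or lower. A gene without a region in a table had no listed difference there, and its level in that comparison is not analysed here. Values are the authors' normalized reads in a region, with n = 3 libraries per group, and distances run from the start site in the deposited mm9 annotation along the direction of the gene. Higher and lower refer to regions past the authors' adjusted p of 0.05. Rose and fell are kept for regions that passed limma, a linear model of the log2 normalized reads plus 0.5 fitted across all regions of a table, at a Benjamini-Hochberg adjusted p of 0.05. Log2 changes from limma carry their standard error, and other errors are SD.

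The tables held between 321448 and 2780941 recovered reads per library in listed regions. One property of whole libraries moved with the comparisons. It is the ratio of the median level at listed regions within 1 kb of a start site to that at listed regions away from promoters, both per kb. The ratio ran from 2.26 to 4.49 in Tg197 libraries against 1.39 to 1.52 in WT libraries at 3 weeks, and from 2.17 to 3.65 in Tg197 libraries against 0.975 to 1.87 in WT libraries at 8 weeks. It ran from 2.17 to 2.57 in Tg197 libraries against 1.46 to 1.6 in WT libraries at 11 weeks, and from 2.08 to 4.40 in TNF-treated libraries against 0.982 to 1.75 in WT libraries. The listed regions were selected on differences between these same libraries, so part of this split is fixed by the selection. At 8 weeks the highest WT ratio, in both tables, was that of library c, which stood apart from WT libraries a and b. Part of what is described below at single genes moves with this ratio, and its part in those results was not tested.

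Promoters were looked up in the table of RefSeq promoter sequences of the GRCm38.p6 build, with Pdgfrb left out beforehand. The Pdpn promoter is shown because the 3-week region reaches across the Pdpn start site of the mm9 annotation. No region of Thy1 or Pdgfra reaches across a start site. The window runs from 250 bases before to 50 bases after the RefSeq start site at chr4:143299515-143299814 on the minus strand, 5′ to 3′, and capitals mark GC box matches (GGGCGG on either strand).

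Pdpn promoter: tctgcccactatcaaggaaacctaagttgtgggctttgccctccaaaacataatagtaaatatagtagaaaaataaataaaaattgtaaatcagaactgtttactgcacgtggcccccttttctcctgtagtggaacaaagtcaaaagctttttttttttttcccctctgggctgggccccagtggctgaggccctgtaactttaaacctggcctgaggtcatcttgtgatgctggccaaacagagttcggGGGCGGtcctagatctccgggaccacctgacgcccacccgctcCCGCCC

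The window held 2 GC box matches, with first bases at positions 2 and 45 downstream of the start site counted as 1, the first on the plus and the second on the minus strand of the gene. It had 48.7% G and C and 7 CpG, close to the medians of 52.7% and 7 over all 32851 promoters of the table. A GC box was present in 35.7% of those promoters. No match to the AP-1 motif (TGANTCA), to the TATA box (TATAAA) or to the NF-kB consensus lay in the window on either strand. These motifs were present in 7.81%, 13.6% and 8.46% of all promoters. The Pdgfra window, from 250 bases before to 50 bases after its start site, had 51% G and C, 5 CpG and no match to any of the 4 motifs. Of the genes looked up, Pdpn and Pdgfra matched an entry of the table and Thy1 did not.

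**Figure D1:**
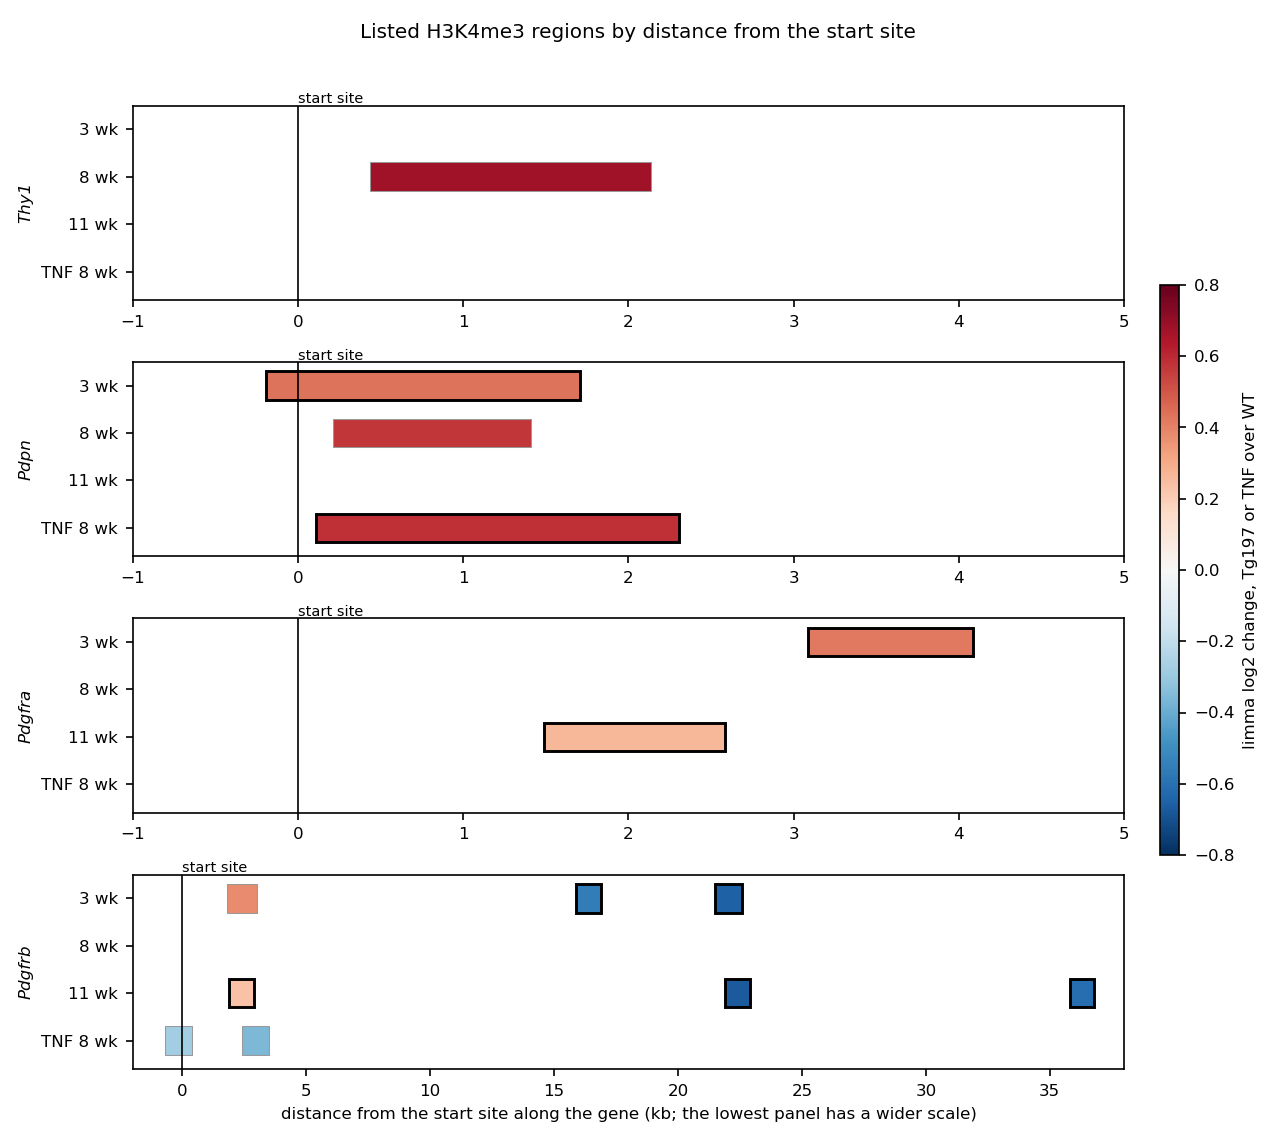
Position of each of the 14 listed regions along its gene in kb from the start site, one panel per gene and one row per comparison, coloured by the limma log2 change of Tg197 or TNF-treated over WT cells, with a black outline where the limma adjusted p is under 0.05. Higher regions lie between just before the start site, reached only at Pdpn, and about 4 kb downstream, reached only at Pdgfra. The 4 regions that fell lie deep in the body of Pdgfrb.

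Thy1 had 1 listed region, in Tg197 against WT cells at 8 weeks, at chr9:43851901-43853600 on mm9. It covers 435 to 2134 bases downstream of the start site. The Tg197 libraries had 327.56, 318.23 and 309.68 normalized reads there, and the WT libraries 206.13, 183.81 and 207.29. The groups did not overlap, and every Tg197 library exceeded the highest WT library by more than the range within either group. The means were 318 ± 8.94 in Tg197 and 199 ± 13.2 in WT cells, a 1.6-fold difference, on 236 to 613 recovered reads per Tg197 and 117 to 289 per WT library. A change in the number of cells that carry the mark and a change in the amount of mark per cell cannot be told apart in such pooled chromatin. The deposited adjusted p was 2.25e-07, which placed the region 84th of 2923 by the authors' p, and 96.8% of listed promoter regions at 8 weeks had a smaller deposited log2 change. The limma log2 change was 0.68 ± 0.18 with an adjusted p of 0.0725, so it did not pass. No region of the 8-week table passed limma or voom, and 1876 of 2923 had an unadjusted limma p under 0.05. Without WT library c the Thy1 region passed (log2 change 0.71, limma adjusted p = 0.00682). In that fit 328 of all 2923 listed regions rose and 2235 fell, so passing was the common state.

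The authors' best window within the Thy1 region, chosen for its difference, lay 535 to 1534 bases downstream of the start site and had a deposited log2 change of 0.73. The authors' enrichment over input was 9.04 in Tg197 and 3.86 in WT cells. Per kb of region, Thy1 averaged 187 ± 5.26 normalized reads in Tg197 and 117 ± 7.78 in WT cells. Thy1 had no listed region at 3 weeks, at 11 weeks or with TNF.

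Pdpn had a region over the same stretch downstream of its start site in 3 of the 4 comparisons, higher in the Tg197 or TNF-treated cells each time. In the 3-week comparison the region chr4:142887701-142889600, from 191 bases before to 1708 bases after the start site, had 398.21, 496.29 and 316.39 normalized reads in Tg197 libraries and 285.64, 289.47 and 305.59 in WT libraries. The groups did not overlap, and the WT libraries lay close together while the Tg197 libraries were spread, with library c just above the highest WT library. The means of 404 ± 90.1 in Tg197 and 294 ± 10.6 in WT cells gave a 1.37-fold difference. Pdpn rose by limma (log2 change 0.44 ± 0.19, adjusted p = 0.0441), and the deposited adjusted p was 0.000121. That call held without Tg197 library c (limma adjusted p = 0.00277) and was lost when any of the other 5 libraries was left out, with limma adjusted p between 0.0847 and 0.118. Without Tg197 library c 1196 of all 13603 listed regions rose, against 637 with all libraries. Without Tg197 library a or b 286 and 536 rose, and without WT library a, b or c 111, 133 and 0. The Pdpn call was also lost with voom (adjusted p = 0.0547) and in limma without a trend in the variance (adjusted p = 0.0622).

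In the 8-week comparison of Tg197 with WT cells the Pdpn region was shorter, chr4:142888001-142889200, and began 209 bases downstream of the start site. The Tg197 libraries had 315.80, 177.99 and 263.74 normalized reads, and the WT libraries 160.81, 157.10 and 177.17. The groups met without overlapping, since Tg197 library b was less than 1 normalized read above WT library c. The means were 253 ± 69.6 in Tg197 and 165 ± 10.7 in WT cells, a 1.53-fold difference with a deposited adjusted p of 0.000443. The limma log2 change of 0.57 ± 0.25 did not pass (adjusted p = 0.0761), and it passed without WT library c (limma adjusted p = 0.0359). In that fit 328 of all 2923 listed regions rose and 2235 fell, against 0 in either direction with all libraries.

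TNF-treated WT cells of 8 weeks were compared with the same untreated WT libraries as the Tg197 cells of that age, so the 2 comparisons share their controls and are set side by side only. The Pdpn region of the TNF table, chr4:142887101-142889300, reaches from 109 to 2308 bases downstream of the start site and contains the whole 8-week region. It had 405.19, 573.15 and 418.19 normalized reads in TNF-treated libraries and 338.06, 297.92 and 287.18 in WT libraries. All TNF-treated libraries were above all WT libraries, and library b was the highest. The means were 466 ± 93.4 with TNF and 308 ± 26.8 in WT cells, a 1.51-fold difference. Pdpn rose by limma (log2 change 0.58 ± 0.16, adjusted p = 0.0460), with a deposited adjusted p of 0.000441. The call held without TNF library a or WT library c, and was lost without TNF library b or c or WT library a or b, with limma adjusted p between 0.110 and 0.135. In each of the fits that lost it, limma called 0 of all 3082 listed regions. Where it held, 343 regions rose and 1414 fell without TNF library a, and 661 rose and 2109 fell without WT library c. The Pdpn call was lost without a trend in the variance too (adjusted p = 0.0534), where limma also called 0 of 3082 regions.

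The 3 Pdpn regions overlapped strongly, and their best windows shared 700 bases, from 509 to 1208 bases downstream of the start site. Per kb of region, Pdpn averaged 212, 210 and 212 normalized reads in Tg197 cells of 3 and 8 weeks and in TNF-treated cells, and 155, 138 and 140 in the WT cells of the same tables. The tables were scaled separately, so these levels are set side by side without a test. At 11 weeks no Pdpn region was listed.

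**Figure D2:**
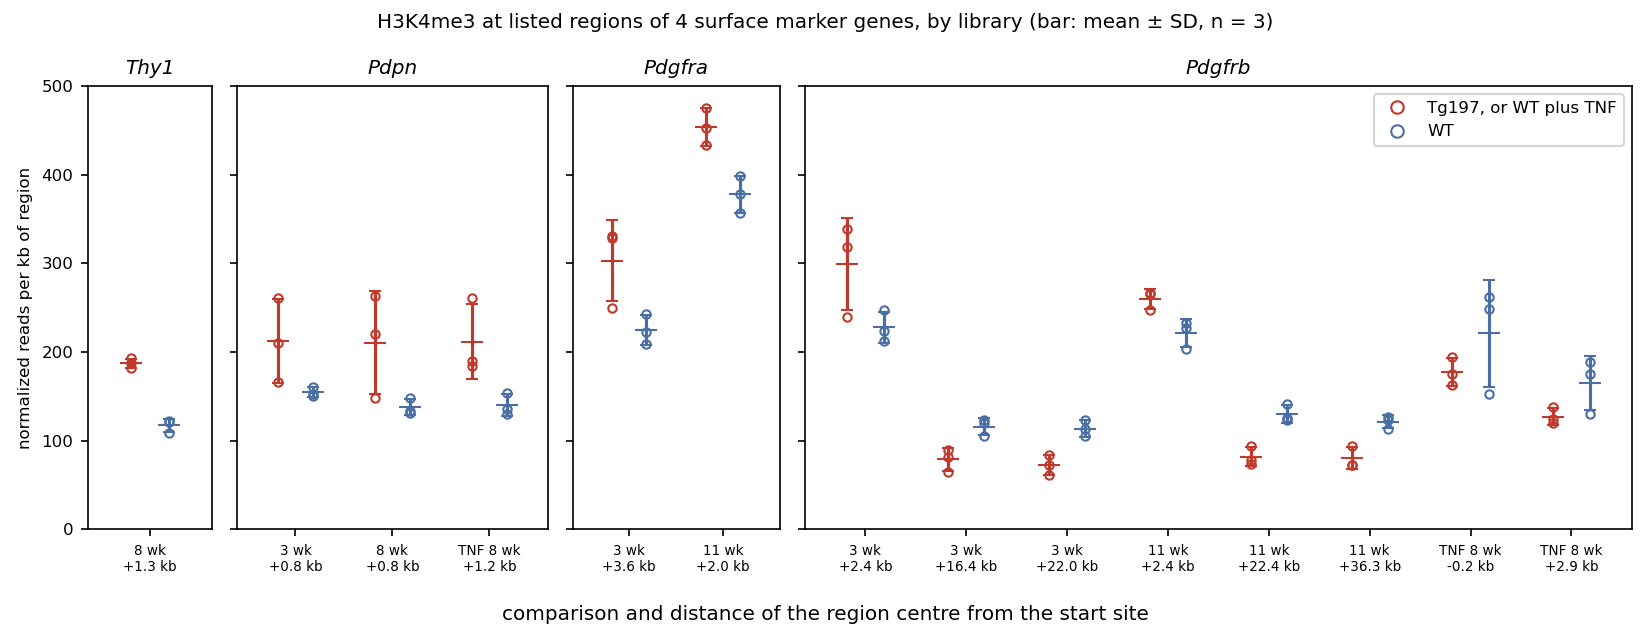
Normalized reads per kb in each library (points) at each listed region of the 4 genes, with the mean and SD of 3 libraries, for Tg197 or TNF-treated cells (red) and WT cells (blue); labels give the comparison and the distance of the region's centre from the start site. Tg197 or TNF-treated libraries lie above all WT libraries at Thy1, Pdpn and Pdgfra, and at Pdgfrb the flank regions of 3 and 11 weeks lie above while the gene-body and TNF regions lie below in the mean.

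Pdgfra was higher in Tg197 cells at 3 and at 11 weeks, in 2 regions that do not overlap. The 11-week region, chr5:75549801-75550900, lies 1486 to 2585 bases downstream of the start site and carried the highest level per kb of the 14. It had 522.55, 476.40 and 498.12 normalized reads in Tg197 libraries and 438.20, 392.45 and 415.67 in WT libraries. The groups did not overlap, and the spread was alike in both. The means were 499 ± 23.1 in Tg197 and 415 ± 22.9 in WT cells, or 454 and 378 per kb. Pdgfra rose 1.2-fold by limma (log2 change 0.26 ± 0.08, adjusted p = 0.00820), and it passed in all 6 fits that left out 1 library. Without a trend in the variance it did not pass (limma adjusted p = 0.0636). The deposited adjusted p was 0.00635.

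The 3-week region of Pdgfra, chr5:75551401-75552400, lies 3086 to 4085 bases downstream of the start site and is classed as gene body, just beyond the limit of 3 kb for promoters. It had 329.06, 330.48 and 249.85 normalized reads in Tg197 libraries and 242.59, 222.41 and 209.48 in WT libraries. The groups did not overlap, though Tg197 library c was only 7 normalized reads above WT library a. The means were 303 ± 46.1 in Tg197 and 225 ± 16.7 in WT cells. Pdgfra rose 1.35-fold at this region (log2 change 0.42 ± 0.18, limma adjusted p = 0.0373, deposited adjusted p 0.000272). The limma call held without Tg197 library c and was lost when any of the other 5 libraries was left out, with adjusted p between 0.0532 and 0.129, and without a trend in the variance (adjusted p = 0.0552). As given for Pdpn, fewer of all listed regions rose in each of those 5 fits than with all libraries, and 0 rose without WT library c. Only 0.928% of the gene-body regions of the 3-week table were higher in Tg197 cells. No region of Pdgfra was listed at 8 weeks or with TNF.

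Pdgfrb had regions in both directions. Near the start site it carried more H3K4me3 in Tg197 cells at 3 and 11 weeks, farther into the gene it carried less in the same cells, and with TNF both of its promoter regions were lower, where the signs at 3 weeks in the gene body and with TNF turned under one of the other scalings given below. The flank region of 3 weeks, chr18:61206601-61207800, lies 1798 to 2997 bases downstream of the start site. It had 382.31, 405.85 and 287.87 normalized reads in Tg197 libraries and 255.19, 296.17 and 268.62 in WT libraries. Tg197 library c lay below WT library b, so the groups overlapped. The means were 359 ± 62.4 in Tg197 and 273 ± 20.9 in WT cells, a 1.31-fold difference. It passed the authors' adjusted p (0.000682) and did not pass limma (log2 change 0.38 ± 0.18, adjusted p = 0.0633). It passed without Tg197 library c (limma adjusted p = 0.00414) and with libraries scaled to the median of all listed regions (log2 change 1.05, limma adjusted p = 0.036). In these fits 1196 and 940 of all 13603 listed regions rose, against 637 with all libraries and the authors' scaling.

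The flank region of 11 weeks, chr18:61206701-61207700, lies wholly within that of 3 weeks. It had 266.63, 246.91 and 265.38 normalized reads in Tg197 libraries and 232.90, 203.20 and 226.93 in WT libraries. The groups did not overlap. The means were 260 ± 11.0 in Tg197 and 221 ± 15.7 in WT cells, and Pdgfrb rose 1.17-fold there (log2 change 0.23 ± 0.10, limma adjusted p = 0.0386). The deposited adjusted p of 1.63e-08 ranked the region 101st of 6593 by the authors' p, although 55.1% of listed promoter regions had a smaller deposited log2 change. The limma call held without Tg197 library b or WT library a and was lost without any of the other 4, with limma adjusted p between 0.0601 and 0.145. Without a trend in the variance the adjusted p was 0.0995.

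Inside the gene, 2 Pdgfrb regions fell in each of the 3-week and 11-week comparisons under the authors' scaling. The pair centred about 22 kb from the start site shares 700 bases between the ages. At 3 weeks this region, chr18:61226301-61227400, had 80.28, 67.25 and 92.34 normalized reads in Tg197 libraries and 115.52, 124.06 and 135.54 in WT libraries. At 11 weeks the region chr18:61226701-61227700 had 78.17, 73.77 and 93.76 in Tg197 libraries and 141.28, 125.59 and 123.58 in WT libraries. The groups were apart at both ages, by more than 20 normalized reads. Pdgfrb fell there by 0.65 ± 0.20 on the log2 scale at 3 weeks (limma adjusted p = 0.0152) and by 0.67 ± 0.16 at 11 weeks (limma adjusted p = 0.00438). The 3-week call was lost without WT library b or c, with limma adjusted p of 0.050 and 0.0647, and the 11-week call held in all 6 fits. At 3 weeks 7822 of all 13603 listed regions fell without WT library b and 0 without WT library c, against 12096 with all libraries.

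The other gene-body regions differed between the ages. At 3 weeks it was chr18:61220701-61221700, 15898 to 16897 bases into the gene, with 81.87, 64.94 and 89.62 normalized reads in Tg197 libraries and 122.87, 105.06 and 119.52 in WT libraries. At 11 weeks it was chr18:61240601-61241600, 35798 to 36797 bases into the gene, with 94.23, 72.74 and 72.83 normalized reads in Tg197 libraries and 113.69, 123.84 and 126.95 in WT libraries. Every Tg197 library was below every WT library in both. The log2 changes were -0.56 ± 0.21 at 3 weeks (limma adjusted p = 0.0248) and -0.61 ± 0.17 at 11 weeks (limma adjusted p = 0.00498). The 3-week call was lost when any WT library was left out, with limma adjusted p between 0.0540 and 0.105. Of all 13603 listed regions, 8006, 7822 and 0 fell without WT library a, b and c, against 12096 with all libraries. All 4 gene-body regions were low, with group means of 72.7 to 130 normalized reads per kb against 221 to 299 at the flank. A fall of this size was the common state of gene-body regions in these tables. At 3 weeks 98.4% of them were lower in Tg197 cells, with a median limma log2 change of -0.73, and at 11 weeks 73.4% were lower, with a median of -0.63.

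With TNF, Pdgfrb had a region across its start site, chr18:61204101-61205200, and one on its flank, chr18:61207201-61208300. The start-site region had 213.45, 192.14 and 179.38 normalized reads in TNF-treated libraries and 288.29, 167.35 and 273.39 in WT libraries. WT library b was the lowest of the 6 and the other WT libraries were the highest, so the groups overlapped. The means were 195 ± 17.2 with TNF and 243 ± 65.9 in WT cells (deposited adjusted p 0.0348, log2 change -0.28 ± 0.22, limma adjusted p = 0.233). The flank region had 151.95, 131.48 and 136.46 normalized reads in TNF-treated libraries and 192.20, 207.81 and 143.59 in WT libraries. Here WT library c lay within the range of the TNF-treated libraries, and the means were 140 ± 10.7 with TNF and 181 ± 33.5 in WT cells. The deposited adjusted p was 0.00373 and the limma log2 change -0.36 ± 0.21 (adjusted p = 0.130). Without WT library c the flank region passed limma (log2 change -0.52, adjusted p = 0.0188), and with voom on the recovered reads the start-site region did (log2 change -0.46, adjusted p = 0.0481). Of all 3082 listed regions, 661 rose and 2109 fell without WT library c, and 410 rose and 1574 fell with voom. The 2 Pdgfrb regions of the TNF table also stood against their own enrichment over input, which was 5.77 with TNF and 3.71 in WT cells at the start site, and 5.42 with TNF and 3.27 in WT cells at the flank. Of the 2228 regions that were lower in the TNF table, 1175, or 52.7%, had the higher enrichment in TNF-treated cells.

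**Figure D3:**
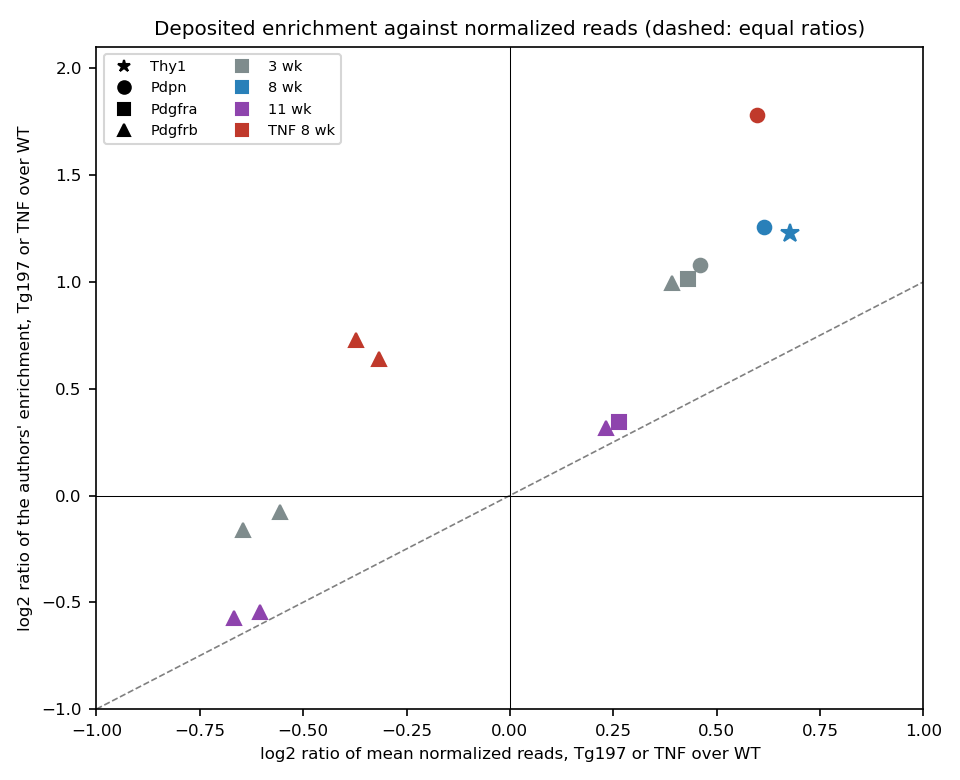
Log2 ratio of the authors' enrichment over input (vertical) against the log2 ratio of mean normalized reads (horizontal), Tg197 or TNF-treated over WT cells, for the 14 regions, with symbols for genes and colours for comparisons. Every region lies on or above the dashed line of equal ratios, and the 2 Pdgfrb regions of the TNF comparison are lower in normalized reads and higher in enrichment.

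The enrichment ratio exceeded the ratio of normalized reads at most listed regions, by a median of 0.48 on the log2 scale at 3 weeks, 0.61 at 8 weeks, 0.07 at 11 weeks and, in the TNF comparison, 1.04. The member regions followed that pattern. Pdpn had an enrichment of 5.86 in Tg197 and 2.77 in WT cells at 3 weeks, 8.04 in Tg197 and 3.36 in WT cells at 8 weeks, and 9.47 with TNF and 2.75 in WT cells. Pdgfra had 6.45 in Tg197 and 3.19 in WT cells at 3 weeks and 9.99 in Tg197 and 7.88 in WT cells at 11 weeks. The sources used here do not say how the input was scaled.

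Counted over the 4 genes, 8 regions were higher and 6 lower by the authors' adjusted p, and 5 rose and 4 fell by limma. At 3 weeks 3 of 5 regions were higher and 2 lower, where 9.71% of all listed regions were higher and 89.5% lower. At 8 weeks both regions were higher, where 20.2% of all listed regions were higher and 77.2% lower. At 11 weeks 2 of 4 regions were higher and 2 lower, where 29.8% and 67% of all listed regions were. With TNF 1 of 3 regions was higher and 2 lower, where 24.6% and 72.3% of all listed regions were. Since nearly every listed region passed the authors' adjusted p in one direction, 99.2% at 3 weeks, 97.4% at 8 weeks, 96.8% at 11 weeks and, in the TNF comparison, 96.9%, the members' counts over both directions are near this background.

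By limma, 2 member regions rose and 2 fell at 3 weeks, where 4.68% of all listed regions rose and 88.9% fell, or 93.6% together. At 11 weeks 2 rose and 2 fell, where 29.6% rose and 67.7% fell, or 97.3% together. With TNF 1 rose and 0 fell, where 16.5% rose and 42.6% fell, or 59.1% together. At 8 weeks limma called 0 member regions and 0% of all regions. The groups did not overlap in 11 of the 14 regions, and the exceptions were the Pdgfrb flank at 3 weeks and both Pdgfrb regions with TNF. Groups lay apart upwards in 6.29% of all listed regions at 3 weeks, 16.9% at 8 weeks, 28.8% at 11 weeks and, in the TNF comparison, 22.4%. They lay apart downwards in 86.4%, 46.3%, 67.1% and 51.8%.

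Listed regions within 3 kb of a start site were more often higher than listed regions as a whole. Of the 9 member regions of that kind 7 were higher and 2 lower by the authors' adjusted p, and 4 rose and 0 fell by limma. In the 3-week comparison 39.7% of such regions were higher and 58.8% lower (98.5% together), and 18.7% rose and 58.3% fell by limma (77% together). In the 8-week comparison 44.4% were higher and 51.9% lower (96.3% together). In the 11-week comparison 46.6% were higher and 47.3% lower (93.9% together), and 45.3% rose and 46.8% fell by limma (92% together). In the TNF comparison 38.9% were higher and 57.1% lower (96.1% together), and 26.1% rose and 26.6% fell by limma (52.7% together). Between 1 and 3 kb from a start site fewer were higher, 11.2% in the 3-week table, 36.4% in the 8-week table, 35.4% in the 11-week table and 23.0% in the TNF table. The median log2 change of this class was -0.63, -0.58, -0.53 and -0.53 in the same order. The Pdgfrb flank at 3 and 11 weeks, Thy1, the 11-week Pdgfra region and the Pdpn region of the TNF table belong to this class and were higher. The Pdgfrb flank of the TNF table belongs to it and was lower.

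Some directions depended on how libraries were scaled. When the median over all listed regions was set equal between libraries, the median log2 change of all listed regions at 3 weeks was -0.04, against -0.70 with the authors' scaling, and the log2 changes of the higher members were larger. Pdpn had 1.11 at 3 weeks, 1.29 at 8 weeks and 1.09 with TNF, Thy1 had 1.39 at 8 weeks, and Pdgfra had 1.09 at 3 weeks and 0.61 at 11 weeks. The Pdgfrb flank had 1.05 at 3 weeks and 0.58 at 11 weeks. All 8 passed limma under this scaling. Of all listed regions 940 of 13603 rose at 3 weeks, 338 of 2923 at 8 weeks, 2078 of 6593 at 11 weeks and 772 of 3082 with TNF. The Pdgfrb gene-body regions of 3 weeks turned to 0.11 and 0.02. The TNF regions of Pdgfrb turned to 0.23 at the start site and 0.15 at the flank, and the gene-body regions of 11 weeks kept their sign but no longer passed limma (log2 changes of -0.33 and -0.27, adjusted p = 0.0991 and 0.146). When listed regions within 1 kb of start sites were used for the scaling instead, the log2 changes of the higher regions were smaller. Pdpn, Pdgfra and the Pdgfrb flank of 3 weeks had log2 changes of 0.10, 0.09 and 0.05, and Pdgfra and the Pdgfrb flank of 11 weeks had 0.12 and 0.09. None of these 5 passed limma under that scaling, where only 3 of all 13603 listed regions rose at 3 weeks and 1488 of 6593 at 11 weeks. Pdpn with TNF kept a log2 change of 0.48 (limma adjusted p = 0.0347), and at 8 weeks Thy1 had 0.55 (limma adjusted p = 0.0422) and Pdpn 0.45 (limma adjusted p = 0.118). Under the same scaling 221 of all 3082 listed regions rose with TNF and 12 of 2923 at 8 weeks. The 8 higher member regions were above 0 under all 3 scalings. They were picked as higher in these same libraries, so this shared sign is no independent evidence. Under the last scaling Pdpn, Pdgfra and the Pdgfrb flank of 3 weeks had standard errors of 0.18, 0.19 and 0.19, larger than their log2 changes. The same held for the Pdgfrb flank of 11 weeks (0.09 ± 0.10).

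**Figure D4:**
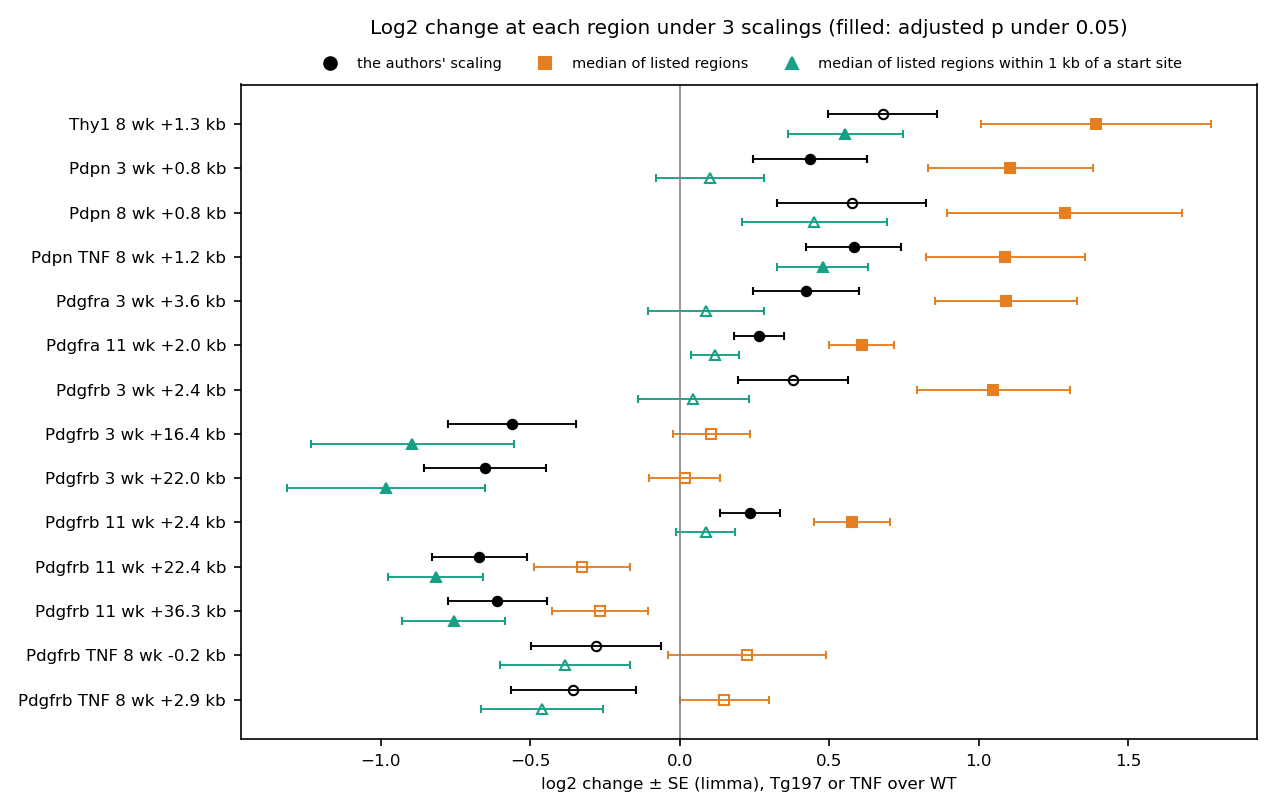
Limma log2 change with its standard error at each of the 14 regions under the authors' scaling, scaling to the median of all listed regions, and scaling to the median of listed regions within 1 kb of a start site, as Tg197 or TNF-treated over WT cells, filled where the adjusted p is under 0.05. The 8 higher regions stay right of 0 under all 3, and the 3-week gene-body and TNF regions of Pdgfrb cross 0.

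A ratio of 2 regions within a library does not depend on its scaling. In each table the 2 members with promoter regions were compared in this way, with a two-sided exact permutation test over the 6 libraries that can give no p below 0.10, and 4 such pairs were tested. Pdgfrb had 2 promoter regions with TNF, and the start-site region, which has the higher mean, was used there. At 3 and 11 weeks its flank was used. With TNF, the log2 ratio of Pdpn to Pdgfrb was 0.92, 1.58 and 1.22 in TNF-treated libraries and 0.23, 0.83 and 0.07 in WT libraries. All TNF-treated libraries were above all WT libraries, narrowly so for library a. The mean log2 ratio was 1.24 ± 0.33 with TNF and 0.38 ± 0.40 in WT cells, a 1.82-fold difference (exact permutation p = 0.1, adjusted 0.4). Pdpn was listed as higher and Pdgfrb as lower in this table, so that the ratio differed was fixed by the listing.

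For the other pairs no difference was detectable with 3 libraries a group, which does not show that the ratios were alike. The log2 ratio of Pdpn to Pdgfrb at 3 weeks was 0.16 ± 0.12 in Tg197 and 0.11 ± 0.12 in WT cells (exact permutation p = 0.6, adjusted 0.8). Thy1 to Pdpn at 8 weeks gave 0.37 ± 0.41 in Tg197 and 0.27 ± 0.08 in WT cells (exact permutation p = 0.8, adjusted 0.8). Pdgfra to Pdgfrb at 11 weeks gave 0.94 ± 0.03 in Tg197 and 0.91 ± 0.04 in WT cells (exact permutation p = 0.5, adjusted 0.8). The groups overlapped in all 3 pairs.

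Within Pdgfrb, the flank was also set against the gene-body region 22 kb from the start site, a ratio chosen after the values were seen. At 3 weeks the log2 ratio was 2.25, 2.59 and 1.64 in Tg197 libraries and 1.14, 1.26 and 0.99 in WT libraries. At 11 weeks it was 1.77, 1.74 and 1.5 in Tg197 libraries and 0.72, 0.69 and 0.88 in WT libraries. Flank and body were farther apart in every Tg197 library than in any WT library at both ages. The means were 2.16 ± 0.48 in Tg197 and 1.13 ± 0.13 in WT cells at 3 weeks and 1.67 ± 0.15 in Tg197 and 0.76 ± 0.10 in WT cells at 11 weeks, differences of 2.05-fold and 1.88-fold (exact permutation p = 0.1 each, the smallest possible). Both regions were listed for opposite differences, so that the ratio differed was fixed by the listing, and the ratio of levels near and away from start sites differed in the same direction in whole libraries, as given above. Its part in the result was not tested.

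**Figure D5:**
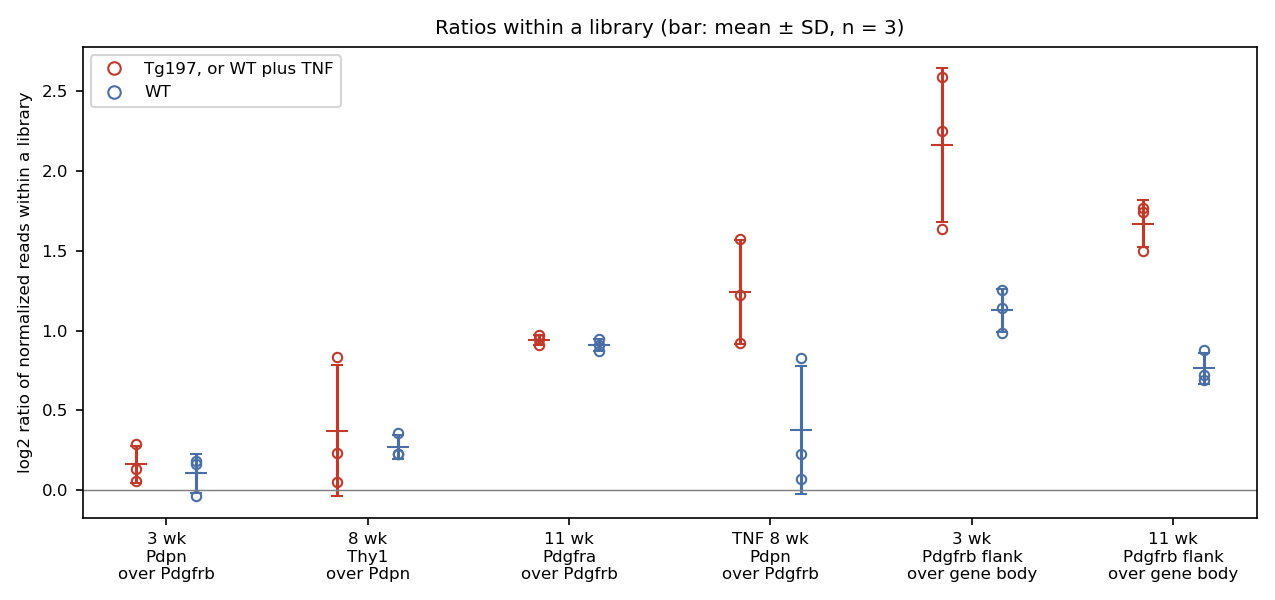
Log2 ratio of 2 regions within each library (points), with the mean and SD of 3 libraries, for Tg197 or TNF-treated cells (red) and WT cells (blue). The groups overlap for the first 3 pairs and are apart for Pdpn over Pdgfrb with TNF and for the Pdgfrb flank over its gene body at 3 and 11 weeks.

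Genes whose promoters varied most like a member were sought over the tables in which the member had a promoter region. The distance was taken between log2 ratios of the group means of normalized reads, not between limma log2 changes. For Pdpn, with 3 tables and 105 genes, the nearest were Hivep2 (distance 0.0447), Klhl9 (0.0831) and Sema7a (0.0921). Hivep2, which encodes a zinc finger DNA-binding protein, had log2 ratios of 0.45 at 3 weeks, 0.66 at 8 weeks and 0.58 with TNF. For Pdgfrb, with 3 tables and 97 genes, the nearest were Ankrd10 (distance 0.221), Zmiz1 (0.247) and Cdkn1a (0.248). The Pdgfrb region taken was its flank at 3 and 11 weeks and its start-site region with TNF, so the place differs. Cdkn1a, which encodes the cell cycle inhibitor p21, had 0.49 at 3 weeks, 0.36 at 11 weeks and -0.51 with TNF. Thy1 and Pdgfra had a promoter region in 1 table each, and no likeness was computed.

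Listed regions of other genes within 100 kb were few. Thy1, Pdgfra, Pdpn at 3 and 8 weeks and Pdgfrb in the TNF table had none. At 3 weeks Pdgfrb had 1, an intergenic region 22501 bases beyond its last region, which was lower in Tg197 cells (75.96 against 123.04 normalized reads in WT cells). At 11 weeks it had 6, of which 5 were lower and 1 higher in Tg197 cells, in the bodies of Camk2a and Cdx1. The nearest, in Cdx1, lay 19301 bases before the flank, with 71.48 normalized reads in Tg197 and 110.93 in WT cells. Pdpn with TNF had 1 neighbour, the Prdm2 promoter 85001 bases away, which was lower with TNF (144.94 normalized reads, against 197.40 in WT cells).

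Among 24 further genes of synovial surface, lining and sublining fibroblasts, promoters were listed for 5 at 3 weeks, 4 at 8 weeks, 9 at 11 weeks and, in the TNF comparison, 3. By limma 18.7% of all listed promoters rose at 3 weeks and 58.3% fell, and of the 5 listed here 3 rose and 2 fell. Those that rose were Vcam1 (1.38-fold) and Icam1 (1.46-fold), which encode adhesion molecules for leukocytes, and the tetraspanin gene Cd81 (1.37-fold), and those that fell were the collagen gene Col6a1 and the endoglin gene Eng. The median log2 change of the 5 promoters was 0.44, against -0.54 over all listed promoters of the table. Gene-body regions of Vcam1 and Icam1 fell in the same comparison, with log2 changes of -0.81 and -0.69. Of all gene-body regions 98.4% were lower there. At 11 weeks 8 of the 9 listed promoters rose by limma, 6 of them also past the authors' adjusted p, and Eng fell. Of all listed promoters 45.3% rose and 46.8% fell by limma at that age. Icam1 had 491.50, 487.67 and 395.15 normalized reads in Tg197 libraries and 260.49, 278.21 and 290.97 in WT libraries, all Tg197 above all WT, and rose 1.66-fold (limma adjusted p = 0.00396). Vcam1 rose 1.5-fold, Cd81 1.45-fold and Cd248, a sublining marker also called endosialin, 1.24-fold. Ngfr and Col6a1 also rose, and the hyaluronan receptor gene Cd44 and the tetraspanin gene Cd151 rose by limma without passing the authors' adjusted p. The median of the 9 was 0.53, against 0.09 over all listed promoters of the table.

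With TNF, Icam1 rose 1.52-fold (282.19, 327.26 and 329.05 normalized reads in TNF-treated libraries and 233.38, 211.49 and 171.98 in WT libraries), and no other surface gene promoter passed limma. Of all listed promoters 26.1% rose and 26.6% fell by limma in this comparison. Cd248 and Cd9 were lower by the authors' adjusted p, with limma log2 changes of -0.52 ± 0.22 and -0.71 ± 0.31. Pdgfrb and Cd248 were both lower with TNF under the authors' scaling, neither past limma with all libraries, and a promoter region of each rose in Tg197 cells of 11 weeks. The Cd248 regions differed, with centres at -276.5 bases from the start site with TNF and 323.5 at 11 weeks. Pdgfrb also fell in its gene body at 11 weeks, and Eng was lower in both comparisons. Of all listed promoters 57.1% were lower with TNF and 46.6% higher at 11 weeks. At 8 weeks the Cd44 promoter was higher in Tg197 cells and those of Cd151 and Htra4 were lower, none past limma. Over all position classes, 9 surface genes were listed at 3 weeks, with 1 higher, 6 lower and 2 in both directions. At 8 weeks 1 of 7 was higher and 5 lower, at 11 weeks 6 of 10 were higher and 3 lower, and with TNF 1 of 6 was higher and 5 lower. Of all listed regions 89.5%, 77.2%, 67% and 72.3% were lower in the same order.

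Of 20 genes of the PDGF and Notch pathways, promoters were listed for 4, 2, 2 and 1 at 3, 8 and 11 weeks and with TNF. Notch2, a Notch receptor, was higher in 2 comparisons. It had 299.77, 223.84 and 255.82 normalized reads in Tg197 libraries and 172.50, 149.25 and 184.34 in WT libraries at 8 weeks, and rose 1.41-fold with TNF (limma adjusted p = 0.0460), against the same WT libraries. Hey1, a Notch target, rose 1.54-fold at 3 weeks, and Jag1, a Notch ligand, rose 1.35-fold at 11 weeks. Notch1, another Notch receptor, and Plcg1, a phospholipase that PDGF receptors activate, were higher at 3 weeks without passing limma, and Grb2, an adaptor of growth factor receptors, fell. At 11 weeks the phosphatase gene Ptpn11 fell. The PDGF ligand gene Pdgfc was 1.37-fold higher in Tg197 cells at 8 weeks without passing limma (adjusted p = 0.0840), and Pdgfb, another ligand of both receptors, rose 1.62-fold at a gene-body region at 11 weeks. Gene-body regions of Notch3 and Ptpn11 fell in the same comparison, with log2 changes of -0.71 and -0.92. Of all gene-body regions 73.4% were lower there. Over all position classes, 10 genes of the list were listed at 3 weeks, where Hey1 rose and the other 9 fell in at least 1 region, among them Stat3, Notch1, Notch2 and Src. This is near the background of that age, where 4.68% of all listed regions rose and 88.9% fell by limma. Of all gene-body regions 98.4% were lower. With TNF gene-body regions of Notch1 and Stat3 fell, where 95.2% of all gene-body regions were lower. The median log2 changes of these promoters were 0.40 and 0.55 at 3 and 8 weeks, -0.07 at 11 weeks and, in the TNF comparison, 0.49, against -0.54, -0.47, 0.09 and -0.41 over all listed promoters.

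Among 9 partners of podoplanin, 4 had a listed promoter at 8 weeks and all 4 were higher in Tg197 cells, where 44.4% of all listed promoters were, and none passed limma. They were Cd44, Rhoa (1.47-fold), Rock1 (1.67-fold) and Rock2 (1.4-fold), of which the last 3 encode the contractility regulator RhoA and its kinases. Their median log2 change was 0.52, against -0.47 over all listed promoters, which again tells mainly which direction was more common. At 3 weeks no promoter of the list was in the table, and all 7 listed regions, in the bodies of Rhoa and Cd44, fell. That is near the background, since 98.4% of all gene-body regions were lower at that age. At 11 weeks the Rhoa promoter fell, and the Cd44 promoter rose by limma without passing the authors' adjusted p. Gene-body regions of Rhoa, Rock2 and Cd44 fell in the same comparison, the last with a log2 change of -0.97. Of all gene-body regions 73.4% were lower there. With TNF, Msn, which encodes moesin, had 385.29, 374.84 and 346.66 normalized reads in TNF-treated libraries and 248.83, 261.14 and 253.92 in WT libraries, well apart, and rose 1.45-fold (limma adjusted p = 0.0460), while Rock2 was lower without passing limma.

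Markers of other cells that could be in a synovial culture were counted in the same tables. Podoplanin is also carried by lymphatic endothelium. Of its 3 markers Lyve1 and Prox1 had no listed region, and Flt4 rose in Tg197 cells at 3 weeks, with 195 to 201 normalized reads in Tg197 and 127 to 149 in WT libraries, and in its body at 11 weeks. Of 7 pericyte and smooth muscle markers, which share Pdgfrb, only Acta2 was listed, with a gene-body region that fell at 3 weeks and a promoter that was higher at 8 weeks (489 to 603 normalized reads in Tg197 and 298 to 402 in WT libraries). None of the 5 nerve and Schwann cell markers was listed at 8 weeks, where Thy1 was, and Sox10 alone was listed at 3 and 11 weeks. Its promoter rose in Tg197 cells at 11 weeks (log2 change 0.52, limma adjusted p = 0.0292), with 107 to 201 normalized reads in Tg197 and 86.3 to 100.4 in WT libraries, and 2 regions in its body fell at 3 weeks.

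Of 10 leukocyte markers Itgam fell at 3 and 11 weeks and Cd79a and Fcer1g were lower at 8 weeks, and no leukocyte marker was higher in any table. Lower was the common state, with 89.5% of all listed regions at 3 weeks, 77.2% at 8 weeks and 67% at 11 weeks. Of 8 cartilage, bone and fat markers, 3, 3, 4 and 3 were listed in the tables of 3, 8 and 11 weeks and TNF, all lower, where 72.3% of all listed regions of the TNF table were lower. Their summed normalized reads were 682 to 851 in Tg197 and 1084 to 1310 in WT libraries at 3 weeks, and 532 to 778 with TNF and 1034 to 1313 in WT libraries. Endothelial markers had members in both directions at 3 and 11 weeks, and Pecam1 fell with TNF. The muscle marker Ckm was lower at 3 and 8 weeks, and the epithelial marker Cdh1 at 3 weeks. Of the 13 markers of synovial fibroblasts, the 4 genes included, 11 were listed at 3 weeks, 3 at 8 weeks, 5 at 11 weeks and, in the TNF comparison, 4. At 3 weeks 2 of the 11 genes were higher, 6 lower and 3 had regions in both directions. The promoters of Col1a1, Col6a1 and Lum fell, with log2 changes of -0.50, -0.60 and -0.74, and gene-body regions of Col3a1, Col1a2 and Cdh11 fell. At 8 weeks all 3 were higher, Thy1, Pdpn and Col1a2. At 11 weeks 3 were higher, Col1a2 was lower and Pdgfrb had regions in both directions. With TNF Pdpn was higher, and Col1a1, Col6a1 and Pdgfrb were lower. The part of other cell types in the values of the 4 genes was not tested.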

How the data were processed

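H3K4me3 ChIP-seq of 21 libraries in 7 groups of 3 was read from 4 deposited tables of regions on mm9. Of tools, the submitters' processing notes list TopHat, TopHat2, Cufflinks, Cuffdiff and BWA, with no version, and mm9 as the build. The sources used here name no region caller. Per the file headers, each region has the authors' normalized counts of 3 treated and 3 control libraries, held together in 1 cell per group, and group averages, which are signal values. The deposited enrichment columns are a ratio over input, the deposited fold columns are log2 values of treated over control, and each region and its best window has a deposited p-value and adjusted p-value. The authors' annotation gives a distance score to the start site and the position class. The headers do not name genotypes. The control columns were taken as WT and the treatment columns as Tg197 or TNF-treated, since the controls of the Tg197 and TNF tables of 8 weeks had equal reads in all 162 values of 54 regions with identical coordinates. The tables of 3 and 11 weeks were read in the same way.

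No replicate number stands beside these values. The letters a, b and c give the order of a library's value within its cell. Whole reads were recovered from them, since 157206 of 157206 normalized counts were whole multiples of 1 step per library, within 0.02 normalized reads. On these reads voom called 639 regions higher and 12135 lower in the 3-week table, 0 in the 8-week table, 1940 higher and 4461 lower in the 11-week table, and 410 higher and 1574 lower in the TNF table. The test was limma 3.58.1 (R 4.3.3) with a variance trend, fitted to log2 of the deposited count plus 0.5 over all regions of a table, with Benjamini-Hochberg adjustment. It was also run on simulated data in which few regions changed, all upwards. The tables differ from that setting, so the simulated run does not bear on the calls given here. These libraries also decided which regions were listed, so an adjusted p from limma holds for listed regions alone and gives no independent evidence. Alternatives were a pseudocount of 5, 2 other scalings, a mean of at least 50, voom, no trend, each library left out, and an authors' adjusted p under 0.001. Ratios within a library were tested by exact permutation. Python 3.11.15 was used for the rest.

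All listed regions of the 4 genes are named, as are the 3 genes with the most similar promoter changes, the nearest regions within 100 kb, and members past a threshold of lists of synovial surface genes, PDGF and Notch genes, podoplanin partners and cell type markers. Members and lists were chosen with earlier results of these data known. Promoter sequences are from RefSeq, build GRCm38.p6. Regions with fewer recovered reads have the larger counting error.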

Additional observations from a re-analysis of the deposited data

How the results depend on the processing

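Past limma were 4 member regions at 3 weeks, none (0) at 8 weeks, 4 at 11 weeks and 1 in the TNF table. Of all listed regions 93.6%, 0%, 97.3% and 59.1% passed in the same order. Scaling to all listed regions gave 2 at 8 weeks and 2 at 11 weeks. Of all listed regions, 338 rose and 76 fell of 2923 at 8 weeks under it, and 2078 rose and 681 fell of 6593 at 11 weeks. Scaling to regions within 1 kb of a start site gave 2 at 3 weeks, 1 at 8 weeks and 2 at 11 weeks. Under it 3 of all listed regions rose and 12238 fell of 13603 at 3 weeks. At 8 weeks 12 rose and 1717 fell of 2923, and at 11 weeks 1488 rose and 4519 fell of 6593. Without a trend in the variance the counts were 2 at 3 weeks, 2 at 11 weeks and 0 with TNF, and voom gave 2 with TNF. Without a trend limma called 0 of all 3082 listed regions of the TNF table. It then had 466 that rose and 11986 that fell at 3 weeks, and 1821 and 4402 at 11 weeks. The cause was not tested. Leaving out 1 library gave 0 to 5 at 3 weeks, 0 to 2 at 8 weeks, 3 to 4 at 11 weeks and 0 to 2 with TNF, and no region changed direction. At 8 weeks the count of 2 came without WT library c, and at 3 weeks the count of 0 came without WT library b or c. Over all listed regions, 328 rose and 2235 fell of 2923 at 8 weeks without WT library c. At 3 weeks 133 rose and 7822 fell of 13603 without WT library b, and 0 passed without WT library c. With TNF every count of 0 came from a fit that called 0 of all 3082 regions. The authors' adjusted p gave 5, 2, 4 and 3 regions. Under 0.001 these were 2 at 11 weeks and 1 with TNF, and within 3 kb of a start site 2 at 3 weeks and 2 at 11 weeks. Log2 changes that turned under scaling to all listed regions were those of Pdgfrb at 3 weeks, 0.11 and 0.017 in the gene body, and with TNF, 0.23 and 0.15. Leaving out 1 library moved the difference in log2 ratio, Tg197 minus WT, between -0.013 and 0.11 for Pdpn over Pdgfrb at 3 weeks, between -0.13 and 0.26 for Thy1 over Pdpn at 8 weeks, and between 0.012 and 0.050 for Pdgfra over Pdgfrb at 11 weeks. With TNF it lay between 0.70 and 1.09 for Pdpn over Pdgfrb, as TNF-treated minus WT. For the Pdgfrb flank over its body it lay between 0.82 and 1.29 at 3 weeks and between 0.86 and 0.99 at 11 weeks. A pseudocount of 5 changed no call, and the filter at a mean of 50 removed no region. No paired analysis was possible because no replicate number stands beside the deposited values.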
